A study of Mus musculus with 4 samples.

Results

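The semaphorins, ephrins, slits and netrins, with their plexin, neuropilin, Eph, Robo and Unc5 receptors, were followed in RNA-seq of mouse rib cartilage cells. Genes were taken by name from the deposited table, which held 55228 genes. The name pattern matched 72 of them, of which 64 had at least 20 counts over the 4 libraries and 63 could be tested. Libraries were made from C57BL/6 embryos at stage E17.5, 2 labelled Trim28 KO and 2 labelled WT, and every library came from total RNA of rib cartilage cells. TRIM28 is a corepressor recruited to DNA by KRAB zinc finger proteins, where it helps to keep chromatin silent. The labels give neither the way the knockout was made nor the cell type in which the gene was deleted, nor whether the 2 libraries of each genotype are from different embryos. P-values therefore measure the spread between these libraries, which may be technical.

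These families were named for steering growing axons, and they also guide vessels, mesenchymal cells and bone cells. Semaphorins act through plexins, with neuropilins as co-receptors for most secreted members. Ephrins sit on one cell and bind Eph receptor kinases on the next, slits bind Robo receptors, and netrins bind DCC, neogenin and the Unc5 receptors. In the mouse skeleton, Sema4d and Slit3 have been described as signals from osteoclasts to bone-forming cells, and ephrin-B2 and EphB4 as a contact signal between osteoclasts and osteoblasts.

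Total counts ran from 18616896 to 19903917 in Trim28 KO and from 19493435 to 20082123 in WT libraries. The guidance genes together took 0.206% and 0.233% of the counts in Trim28 KO libraries, against 0.249% and 0.234% in WT libraries. Trim28 had 51.1 and 54.5 CPM in Trim28 KO libraries, against 225 and 186 CPM in WT libraries, where CPM are counts brought to a common library size with trimmed-mean (TMM) factors. Of 8 chondrocyte markers, 0 were called by edgeR's quasi-likelihood test, 1 had an unadjusted p under 0.05 and 1 was called by DESeq2. The marker with an unadjusted p under 0.05 was Acan, with 3563 and 4585 CPM in Trim28 KO and 2735 and 2817 CPM in WT. The summed level of the 8 markers was 79172 and 101603 CPM in Trim28 KO libraries and 107676 and 80642 CPM in WT libraries. Most of it was Col2a1 (58700 and 74388 CPM in Trim28 KO, 79631 and 55512 CPM in WT). Libraries differed in muscle markers, whose sum was 956 CPM in Trim28 KO 1, 305 in Trim28 KO 2, 229 in WT 1 and 452 in WT 2.

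At an adjusted p under 0.05 by edgeR's quasi-likelihood test, 9 of the 63 tested genes rose and 17 fell in Trim28 KO. This is 41.3% of them, where 17.4% of all 16639 genes tested were called, 8.64% as higher and 8.77% as lower. These shares over all genes are also the background for the family counts below. Among genes with at least 5 CPM in 2 libraries, the shares were 47.1% of guidance genes and 19.2% of all genes. The libraries of the genotypes did not overlap for 43 of the 63, where the share over all genes was 58.0%. The median log2 fold change was -0.28 for the guidance genes and -0.02 for all genes tested. Neither difference between the guidance genes and the rest was tested. Without Trim28 KO 1, 7 rose and 8 fell (23.8%, against 7.29% of all genes), and without Trim28 KO 2, 5 rose and 14 fell (30.2%, against 9.78%).

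Ligands and receptors were both among the called genes. Of 33 tested ligands, 5 rose and 9 fell, and of 30 tested receptors, 4 rose and 8 fell. Over all genes tested, the background for these counts and the marker counts below, 8.64% rose and 8.77% fell. In bulk RNA, fewer cells of a type and less RNA per cell cannot be told apart. Levels of genes listed as markers of other cells moved between the genotypes. Which cells expressed these genes, chondrocytes included, cannot be told in bulk RNA. Of the 8 osteoclast markers, 7 were tested and 7 fell, with sums of 227 and 226 CPM in Trim28 KO libraries and 1020 and 848 CPM in WT libraries. Most of each WT sum was Mmp9 (43.3 and 58.5 CPM in Trim28 KO, 684 and 516 CPM in WT). In Trim28 KO, most of each sum was Ctsk (173 and 158 CPM in Trim28 KO, 279 and 278 CPM in WT). Of 9 osteoblast markers, 8 fell (9127 and 12914 CPM in Trim28 KO, 39851 and 23941 CPM in WT). Most of each sum was Col1a1 (8258 and 11921 CPM in Trim28 KO, 37380 and 21087 CPM in WT). The uncalled marker, Bglap, went the other way, with 1.70 and 2.31 CPM in Trim28 KO and 0.53 and 1.21 CPM in WT. Perichondrium and tendon markers had 4 of 8 lower (8102 and 9492 CPM in Trim28 KO, 17024 and 15926 CPM in WT). Macrophage markers had 7 of 9 higher (424 and 259 CPM in Trim28 KO, 122 and 120 CPM in WT). Of 12 endothelial markers, 0 were called by edgeR or DESeq2, with 2 at an unadjusted p under 0.05 (615 and 699 CPM in Trim28 KO, 789 and 638 CPM in WT). Those 2 were Erg, with 81.7 and 98.5 CPM in Trim28 KO and 66.9 and 62.7 CPM in WT, and Tek, with 16.6 and 17.1 CPM in Trim28 KO and 21.7 and 22.98 CPM in WT. Of 14 Schwann cell and nerve markers, 10 were tested, 2 rose (Cdh19 and Prph) and 3 fell, with sums of 66.5 and 45.5 CPM in Trim28 KO and 37.8 and 43.4 CPM in WT. Cdh19 alone had 44.7 and 27.7 CPM in Trim28 KO, against 3.56 and 4.85 CPM in WT, while Sox10 was not called (2.57 and 1.71 CPM in Trim28 KO, 3.50 and 3.64 CPM in WT) and Snap25 had no count. No member of the other marker lists was at 0. The part of these cells in the results below was not tested.

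**Figure D1:**
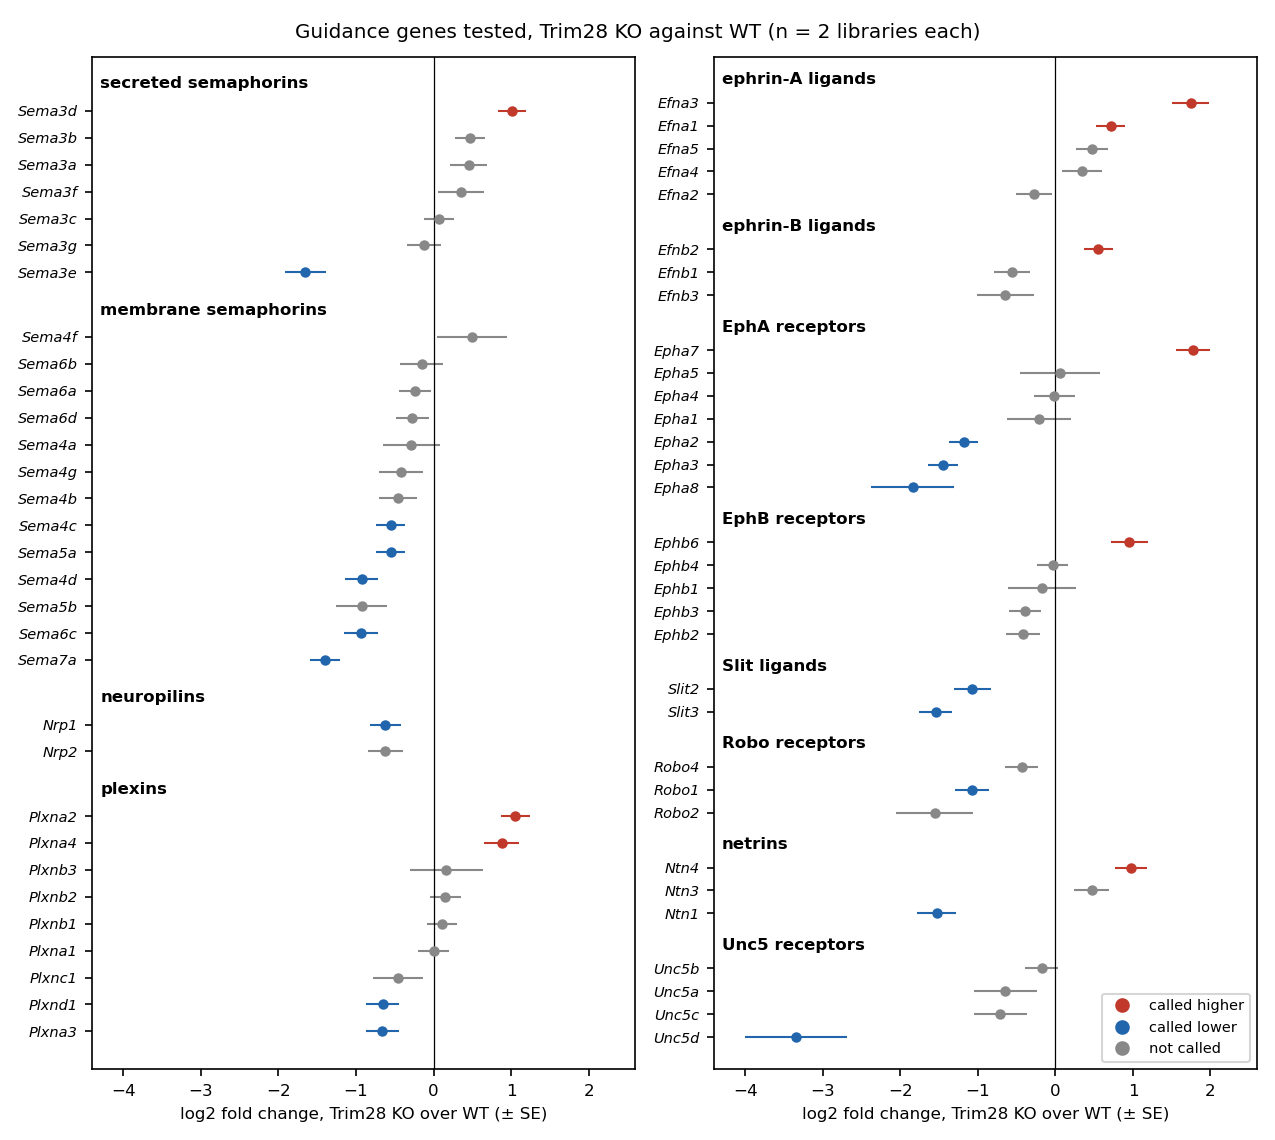
Log2 fold change of each of the 63 tested guidance genes (Trim28 KO over WT, x axis) by family (y axis), with bars for the standard error and n = 2 libraries per genotype. The 9 red points were called higher and the 17 blue points lower, and the families with points on both sides of 0 include EphA receptors, plexins and netrins.

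Compared per length, as CPM per kb of exon, the plexins Plxnb2 and Plxnd1, the ephrin Efna1, the receptors Ephb4 and Unc5b and the secreted semaphorin Sema3c had the highest mean levels. Plxnb2, a receptor for class 4 semaphorins, stood at 33.9 and 40.2 CPM per kb in Trim28 KO libraries and at 35.6 and 31.1 in WT libraries, ranges that overlap. Efna1 stood at 41.4 and 34.9 CPM per kb in Trim28 KO and at 24.1 and 22.4 in WT, and Plxnd1 at 17.9 and 19.5 in Trim28 KO and at 35.5 and 23.6 in WT. Levels of Sema3c lay between 20.01 and 22.0 CPM per kb in the 4 libraries. At the other end, the rule's limit of 20 counts separated Slit1, with 26 counts, from Robo3, with 16. The members below the limit were Epha6 (1 count), Epha10 (2), Ntn5 (8), Robo3 (16), Unc5cl (13), Plxna4os1 (13), Plxna4os2 (1) and Plxna4os3 (0). Unc5cl matched the pattern by its name, and the Plxna4os entries are RNAs antisense to Plxna4. Slit1 had 14 counts in Trim28 KO and 12 in WT and was too low to test.

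**Figure D2:**
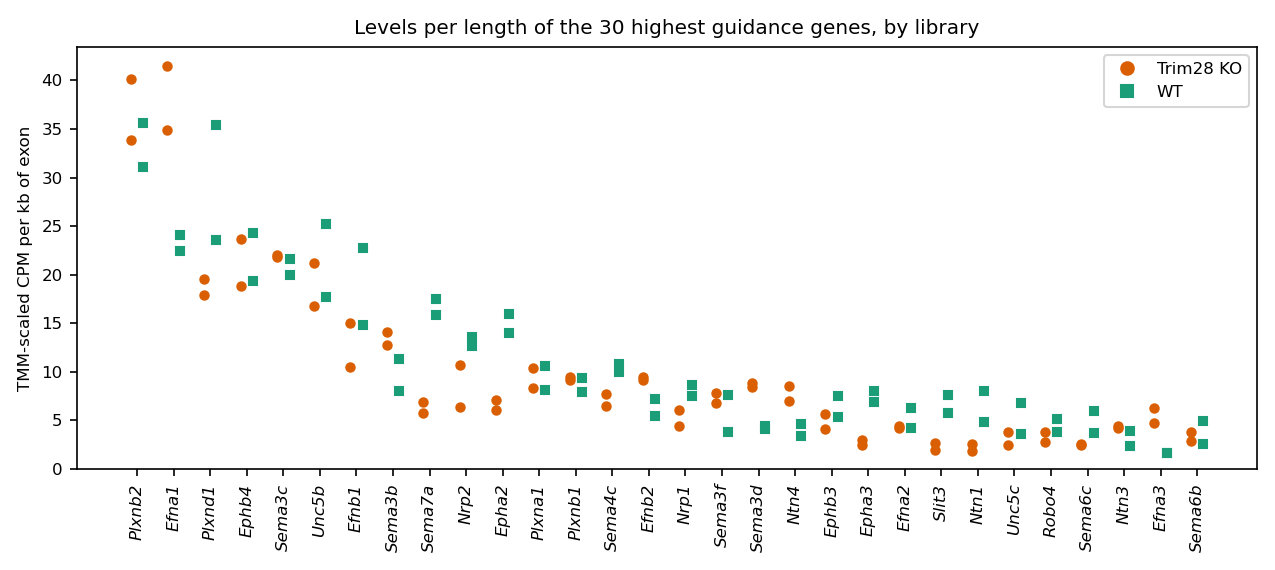
TMM-scaled CPM per kb of exon (y axis) of the 30 guidance genes with the highest mean level, with a point for each library (circles, Trim28 KO; squares, WT). Plxnb2 overlaps between the genotypes, Efna1 is higher in both Trim28 KO libraries and Plxnd1 is lower in both.

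Among the 7 secreted semaphorins, Sema3d rose, Sema3e fell and 5 did not pass the test. Sema3d, a neuropilin-binding signal, had 75.7 and 72.4 CPM in Trim28 KO libraries, against 35.4 and 37.9 CPM in WT libraries, a rise of 2.02-fold (1.01 ± 0.18 as log2 fold change with SE, 2 libraries per genotype, adjusted p = 0.000369 by edgeR). Sema3e, which binds plexin-D1 without a neuropilin, had 3.71 and 6.47 CPM in Trim28 KO, against 13.5 and 18.6 CPM in WT, a fall of 3.15-fold (-1.66 ± 0.26, adjusted p = 0.000195 by edgeR). The genotypes did not overlap for either gene, as for each of the 26 called guidance genes and 58.0% of all genes tested. Neither call was lost under any of the 10 alternatives. These genes lie in the same stretch of chromosome 5, where Sema3d (12383385 to 12588948, plus strand, GRCm38), Sema3a (13125414 to 13602565) and Sema3e (14025276 to 14256689) follow each other. Sema3a, known in mouse bone as a factor from osteoblasts and nerves, lies between them and had a log2 fold change of 0.45 ± 0.24 (adjusted p = 0.204), with 12.05 and 9.68 CPM in Trim28 KO and 6.53 and 9.34 CPM in WT. Sema3c, further along the chromosome, had 0.07 ± 0.19. The remaining values were 0.47 ± 0.20 for Sema3b, 0.36 ± 0.29 for Sema3f and -0.12 ± 0.22 for Sema3g. Without WT 1, Sema3b (adjusted p = 0.0109) and Sema3f (adjusted p = 0.000897) were called higher.

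Of the 13 membrane-bound semaphorins, 5 fell, 8 did not pass the test and 0 rose by edgeR, by DESeq2 or at an unadjusted p under 0.05. Their log2 fold change was below 0 for 12. Over all 16639 genes tested, 8.77% fell and 8631 had values below 0. Sema7a, the member anchored by a lipid and bound by plexin-C1 and beta1 integrins, had 18.9 and 22.7 CPM in Trim28 KO libraries, against 57.8 and 52.2 CPM in WT libraries. It fell 2.64-fold (-1.40 ± 0.19, adjusted p = 1.11e-05 by edgeR) and kept its call under every alternative. Sema4d had 7.11 and 9.33 CPM in Trim28 KO, against 16.5 and 14.8 CPM in WT (-0.93 ± 0.22, adjusted p = 0.00396 by edgeR), and was not called without Trim28 KO 1 (adjusted p = 0.112). Sema6c had 15.4 and 14.9 CPM in Trim28 KO and 35.7 and 22.3 CPM in WT (-0.94 ± 0.22), a value of -0.54 without WT 1 that was not called (adjusted p = 0.122), nor was it called without either Trim28 KO library (adjusted p = 0.0784 without Trim28 KO 1 and 0.0812 without Trim28 KO 2). The smallest called changes were those of Sema5a (-0.55 ± 0.19, adjusted p = 0.0455) and Sema4c, a ligand of plexin-B2 (-0.55 ± 0.19, adjusted p = 0.0435). Each lost its call when either Trim28 KO library was left out, with adjusted p from 0.092 to 0.339, and also without WT 2 for Sema5a (0.204) and WT 1 for Sema4c (0.136). DESeq2 called neither Sema5a (adjusted p = 0.109) nor Sema4c (0.0893), and both calls were lost with library size alone (0.0906 and 0.0841) and with no filter (0.0614 and 0.057). Part of Sema4c, 7.3% of its exon bases, overlaps D430040D24Rik on the opposite strand. Strand was not used in the counting, so reads shared by these genes there went uncounted. Uncalled members ranged from -0.93 ± 0.33 for Sema5b, with an adjusted p of 0.05 just past the threshold, to 0.50 ± 0.45 for Sema4f. Sema5b was called in 2 alternatives, with no filter (adjusted p = 0.0398) and without WT 2. Its values ran from -1.31 to -0.62 over the alternatives.

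Semaphorin receptors moved in both directions. Of 9 plexins, Plxna2 and Plxna4 rose and Plxna3 and Plxnd1 fell. Plxna2, a receptor for class 6 semaphorins and a partner of neuropilins, had 39.8 and 42.9 CPM in Trim28 KO libraries, against 19.5 and 20.3 CPM in WT libraries (1.06 ± 0.19, adjusted p = 0.000287 by edgeR), and kept its call under every alternative. Plxna4 had 12.3 and 15.9 CPM in Trim28 KO, against 7.75 and 7.58 CPM in WT (0.88 ± 0.22, adjusted p = 0.0069), and was not called without Trim28 KO 2 (adjusted p = 0.124). The libraries of the genotypes did not overlap for both, as for 58.0% of all genes tested. Plxna3 had 11.3 and 16.7 CPM in Trim28 KO and 23.1 and 21.2 CPM in WT (-0.66 ± 0.21), and lost its call without Trim28 KO 1 (-0.40, adjusted p = 0.391) or WT 1 (adjusted p = 0.0914). DESeq2 (adjusted p = 0.104) and library size alone (0.0509) did not give the call either. Plxnd1, the Sema3e receptor of vessels, had 131 and 142 CPM in Trim28 KO, against 259 and 172 CPM in WT (-0.66 ± 0.21, adjusted p = 0.0357). Its call rested on several libraries, with values of -0.31 without WT 1 (adjusted p = 0.439), -0.59 without Trim28 KO 1 (0.248) and -0.72 without Trim28 KO 2 (0.131). The uncalled plexins ranged from -0.45 ± 0.32 for Plxnc1 to 0.16 ± 0.47 for Plxnb3, with Plxna1 at 0.00075 ± 0.20.

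Both neuropilins had fewer CPM in each Trim28 KO library than in each WT library, where 58.0% of all genes tested did not overlap in either direction. Nrp1, which also binds VEGF, had 43.6 and 59.0 CPM in Trim28 KO, against 73.8 and 84.5 CPM in WT (-0.62 ± 0.20, adjusted p = 0.031 by edgeR). Nrp1 lost its call without Trim28 KO 1 (-0.42, adjusted p = 0.369) or WT 2 (adjusted p = 0.112). Nrp2 had 75.4 and 126 CPM in Trim28 KO and 161 and 150 CPM in WT, a log2 fold change of -0.63 ± 0.23 that was not called (adjusted p = 0.0615), although it was in the fit with a replicate block (adjusted p = 0.0375) and in 4 other alternatives.

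Of 8 ephrins, 3 rose and 0 fell by edgeR or DESeq2, with 1 lower at an unadjusted p under 0.05. By edgeR, 8.64% of all genes tested rose and 8.77% fell. Efna3 had 15.2 and 11.5 CPM in Trim28 KO libraries, against 3.93 and 4.04 CPM in WT libraries, a rise of 3.35-fold (1.74 ± 0.24, adjusted p = 1.37e-05 by edgeR) that held under every alternative. Efna1 had 75.8 and 63.8 CPM in Trim28 KO, against 44.1 and 41.1 CPM in WT (0.71 ± 0.19, adjusted p = 0.00935), and was not called without Trim28 KO 1 (adjusted p = 0.142). Efna4 (0.34 ± 0.26, adjusted p = 0.416), Efna5 (0.47 ± 0.21, adjusted p = 0.123) and Efna2 (-0.27 ± 0.23) were not called. All 5 are ligands held to the membrane by a lipid anchor. Of the transmembrane ephrins, Efnb2 had 64.6 and 63.0 CPM in Trim28 KO and 49.7 and 37.2 CPM in WT (0.56 ± 0.19, adjusted p = 0.0478). This call was lost without Trim28 KO 1 (0.217), Trim28 KO 2 (0.159) or WT 2 (0.281), in DESeq2 (0.0551) and with a stricter filter (0.053). Efnb1 (-0.56 ± 0.23) and Efnb3 (-0.65 ± 0.37) did not pass the test, though without WT 2 Efnb1 was called lower (adjusted p = 0.00268).

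Efna1, Efna3 and Efna4 are neighbours on the minus strand of chromosome 3, at 89271733 to 89281142, 89313899 to 89322965 and 89333390 to 89338028 on GRCm38. Within 100 kb of the start of Efna3, 16 genes were tested, 3 of them ephrins. Of the other 13, 3 rose and 2 fell, where 8.64% and 8.77% of all genes did. The window was centred on a gene that rose, and its count was not tested against the rest of the genome. The risen genes were Efna1, Efna3, the metalloproteinase gene Adam15 (113 CPM in Trim28 KO and 67.1 CPM in WT on average, 0.75 ± 0.20, adjusted p = 0.0104), the transcription factor gene Zbtb7b (0.83 ± 0.19, adjusted p = 0.00296) and Gm15417 (1.22 ± 0.28). Muc1 (-2.62 ± 0.43) and Trim46 (-1.34 ± 0.28), which lie beyond Efna1, fell, and these neighbours were named after their values were seen. Gm15998 overlaps 14.1% of the exon bases of Efna3 on the opposite strand. Strand was not used in the counting, so reads shared by these genes there went uncounted.

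**Figure D3:**
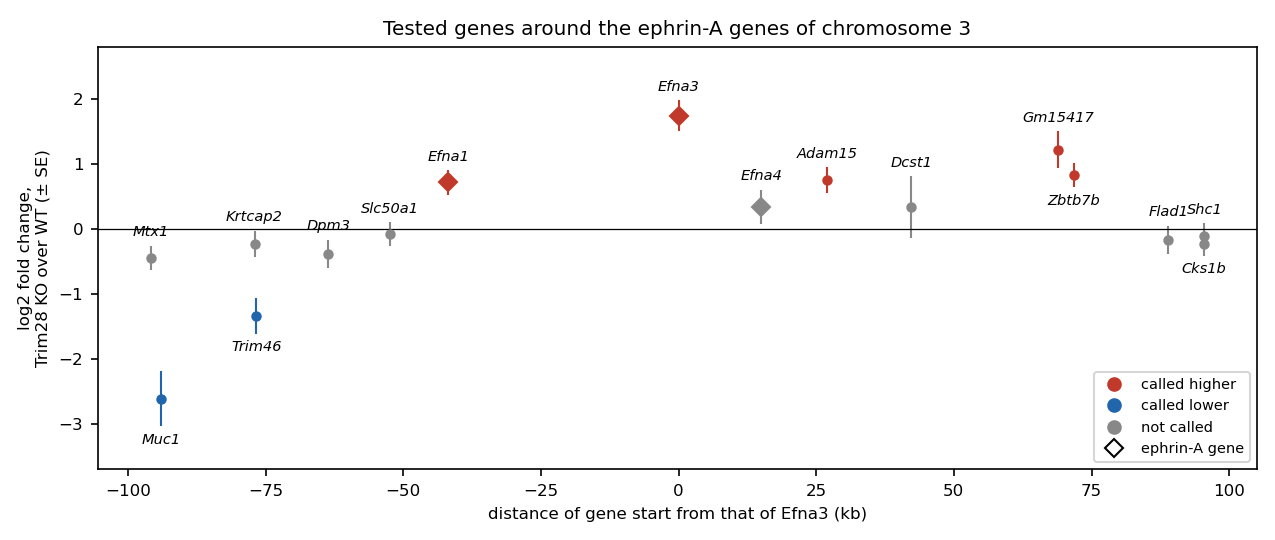
Log2 fold change (Trim28 KO over WT, y axis, bars for the standard error, n = 2 libraries per genotype) of the 16 tested genes whose start lies within 100 kb of that of Efna3, by distance in kb along chromosome 3. Efna1, Efna3, Adam15, Gm15417 and Zbtb7b lie above 0 as called genes, and Muc1 and Trim46 below it.

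EphA receptors split, with 1 rise and 3 falls among 7 tested. Epha7, a receptor known from patterned tissue borders, had 18.1 and 17.7 CPM in Trim28 KO libraries, against 5.10 and 5.35 CPM in WT libraries. Its rise of 3.42-fold (1.77 ± 0.22, adjusted p = 2.74e-06 by edgeR) had the smallest adjusted p of all 63 genes. Epha3 had 21.01 and 26.3 CPM in Trim28 KO, against 60.1 and 69.7 CPM in WT, and fell 2.74-fold (-1.45 ± 0.19, adjusted p = 9.26e-06). Epha2, which in mouse bone has been studied in osteoclasts and osteoblasts, had 28.4 and 33.1 CPM in Trim28 KO, against 74.3 and 65.4 CPM in WT (-1.19 ± 0.19, adjusted p = 8.56e-05). The calls of Epha7, Epha3 and Epha2 held under every alternative. Their libraries did not overlap between the genotypes, as for 58.0% of all genes tested. Epha8 was rare, with 15 counts in Trim28 KO and 53 in WT (-1.84 ± 0.54, adjusted p = 0.0187). Without Trim28 KO 1, Trim28 KO 2 or WT 1, the Epha8 call was lost (adjusted p = 0.243, 0.065 and 0.215), as it was in DESeq2 (0.156). Epha4 (-0.01 ± 0.26), Epha1 (-0.21 ± 0.41) and Epha5 (0.06 ± 0.51) did not pass the test.

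Of 5 EphB receptors, 1 was called. Ephb6, whose kinase domain is inactive, had 8.75 and 9.73 CPM in Trim28 KO, against 4.99 and 4.55 CPM in WT (0.95 ± 0.24, adjusted p = 0.00759 by edgeR), and was not called without Trim28 KO 2 (adjusted p = 0.0767). Ephb4, the most abundant Eph receptor per length, overlapped between the genotypes, with 87.6 and 110 CPM in Trim28 KO and 113 and 89.7 CPM in WT (-0.04 ± 0.20). Ephb2 (-0.42 ± 0.22) and Ephb3 (-0.39 ± 0.21) were called lower without WT 2 (adjusted p = 0.012 and 0.0433), and not in the fit of all libraries. The value of Ephb1 was -0.18 ± 0.44.

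Of the 5 tested Slit and Robo genes, 3 fell, and all 5 had log2 fold changes below 0. Over all 16639 genes tested, 8.77% fell and 8631 had values below 0. Slit3 had 11.7 and 16.1 CPM in Trim28 KO libraries, against 46.0 and 35.1 CPM in WT libraries, and fell 2.92-fold (-1.55 ± 0.21, adjusted p = 1.32e-05 by edgeR), a call that held under every alternative. Slit2 had 5.46 and 8.93 CPM in Trim28 KO, against 15.2 and 15.1 CPM in WT (-1.07 ± 0.24, adjusted p = 0.00245). Robo1, a receptor of both, had 15.1 and 24.1 CPM in Trim28 KO, against 45.2 and 37.3 CPM in WT (-1.07 ± 0.22, adjusted p = 0.0015). Every Trim28 KO library was below every WT library for these genes, and Trim28 KO 1 was the lower of its pair in each. Of all genes tested, 58.0% did not overlap in either direction. Without Trim28 KO 1, Slit2 (-0.75, adjusted p = 0.103) and Robo1 (-0.77, adjusted p = 0.072) were not called. Robo2 had 3.76 and 10.5 CPM in Trim28 KO, against 22.5 and 19.7 CPM in WT (-1.56 ± 0.50). It was not called (adjusted p = 0.119), but DESeq2 called it (adjusted p = 0.000742), as did 5 other alternatives, among them each of the 4 fits without a library. Robo4, a receptor of endothelial cells, did not pass the test (-0.43 ± 0.21, adjusted p = 0.166).

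The promoter windows of 5 called genes with a single listed start are shown: Slit2, Slit3 and Robo1, the called Slit and Robo genes, which fell, and Sema3d and Plxna2, which rose. Each runs from 250 bases before to 50 after a RefSeq start on GRCm38.p6, plus strand, 5′ to 3′. Capitals mark the GC box (GGGCGG, either strand) and the TATA box (TATAAA, either strand). The RefSeq start lies inside the GENCODE gene, 3′ of its first base, by 17 bases for Slit2, 232 for Slit3, 1611 for Plxna2 and 354843 for Robo1, and 219 bases before it for Sema3d.
Slit2 chr5:47982905-47983204: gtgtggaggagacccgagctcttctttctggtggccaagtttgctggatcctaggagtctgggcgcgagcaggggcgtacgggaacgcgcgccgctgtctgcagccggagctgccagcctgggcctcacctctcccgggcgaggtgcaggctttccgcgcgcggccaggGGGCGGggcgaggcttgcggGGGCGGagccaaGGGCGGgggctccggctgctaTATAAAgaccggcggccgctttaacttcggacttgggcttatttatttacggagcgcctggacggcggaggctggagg
Slit3 chr11:35121206-35121505: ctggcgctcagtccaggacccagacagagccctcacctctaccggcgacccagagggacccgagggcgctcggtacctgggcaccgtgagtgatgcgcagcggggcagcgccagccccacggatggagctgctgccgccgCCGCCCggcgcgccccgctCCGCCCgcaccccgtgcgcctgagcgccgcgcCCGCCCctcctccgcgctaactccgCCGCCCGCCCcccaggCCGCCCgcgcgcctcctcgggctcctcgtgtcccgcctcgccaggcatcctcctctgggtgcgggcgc
Robo1 chr16:72662899-72663198: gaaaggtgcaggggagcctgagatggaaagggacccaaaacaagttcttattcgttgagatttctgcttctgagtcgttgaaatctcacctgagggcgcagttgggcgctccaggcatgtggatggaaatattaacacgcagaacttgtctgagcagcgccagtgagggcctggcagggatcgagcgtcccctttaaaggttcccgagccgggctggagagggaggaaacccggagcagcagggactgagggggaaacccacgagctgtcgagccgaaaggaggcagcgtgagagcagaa
Sema3d chr5:12382916-12383215: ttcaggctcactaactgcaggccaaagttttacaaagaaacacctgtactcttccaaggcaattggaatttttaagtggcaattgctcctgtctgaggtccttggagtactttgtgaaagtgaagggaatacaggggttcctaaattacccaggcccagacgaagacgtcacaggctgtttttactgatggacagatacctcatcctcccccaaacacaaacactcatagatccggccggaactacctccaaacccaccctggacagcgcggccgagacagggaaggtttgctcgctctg
Plxna2 chr1:194619579-194619878: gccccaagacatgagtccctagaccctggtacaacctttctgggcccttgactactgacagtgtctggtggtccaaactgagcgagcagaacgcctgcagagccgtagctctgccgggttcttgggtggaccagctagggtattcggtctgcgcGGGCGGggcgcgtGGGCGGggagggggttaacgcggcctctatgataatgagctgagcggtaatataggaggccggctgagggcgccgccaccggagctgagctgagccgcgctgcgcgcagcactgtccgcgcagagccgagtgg
Slit3 held 78.3% G and C and 41 CG dinucleotides in its window, Slit2 68.0% and 30, Plxna2 64.7% and 25, Robo1 57.0% and 15, and Sema3d 49.7% and 8. Among the 5, Slit2 has both a GC box and a TATA box, Slit3 and Plxna2 have GC boxes, and Robo1 and Sema3d have neither. These 5 windows were picked for display and cannot show whether risen and fallen genes differ in these letters. Of the 72 guidance genes, 60 had 1 or more windows. A GC box stood in 71.1% of their 76 windows and in 35.7% of all 32851 mouse windows, and a TATA box in 2.6% and 13.6%. Their windows had a median of 64.2% G and C and 18.5 CG dinucleotides, against 52.7% and 7.0 in all windows. The motif shares were not adjusted for this base composition. By call, a GC box stood in 10 of 11 windows of risen genes (8 genes) and 14 of 19 of fallen genes (15 genes). It stood in 26 of 41 windows of genes that did not pass the test (32 genes). The core of the Runx motif (TGTGGT, either strand), searched because Runx2 fell (-1.22 ± 0.19), stood in 9 of the 76 windows (11.8%), against 16.8% of all windows. None of these motifs was tested between groups. A match is a description of the letters and not of binding.

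Of the 3 tested netrins, Ntn4 rose and Ntn1 fell, and of the 4 Unc5 receptors, 1 fell. Ntn1 had 11.6 and 16.3 CPM in Trim28 KO libraries, against 50.2 and 30.3 CPM in WT libraries, and fell 2.88-fold (-1.53 ± 0.25, adjusted p = 0.000601 by edgeR), a call that held under every alternative. Ntn4, a laminin-related netrin of basement membranes, had 26.4 and 32.1 CPM in Trim28 KO, against 17.2 and 12.6 CPM in WT (0.97 ± 0.21, adjusted p = 0.00169), and was not called without Trim28 KO 2 (adjusted p = 0.0533). The genotypes did not overlap for either, as for 58.0% of all genes tested. Ntn3 had 0.47 ± 0.22 and was not called (adjusted p = 0.166), except without WT 1 (adjusted p = 0.00526). Ntn5 had 0 counts in Trim28 KO and 8 in WT and was not tested. Of the Unc5 receptors, Unc5d had 2 and 3 counts in Trim28 KO, against 35 and 17 in WT (-3.35 ± 0.66, adjusted p = 0.000802), a fall that held in all 9 alternatives that tested it. At these counts the size is poorly fixed: the summed counts, 5 in Trim28 KO and 52 in WT, give a 10.6-fold lower rate with an exact 95% interval of 4.26 to 34.0 for counting error only. Unc5b, the most abundant of them per length, had 105 and 132 CPM in Trim28 KO and 158 and 111 CPM in WT, which overlap (-0.18 ± 0.21). Unc5c (-0.71 ± 0.34) and Unc5a (-0.64 ± 0.41) did not pass the test. Unc5c was called lower in 3 alternatives, among them those without WT 1 and with a replicate block (adjusted p = 0.0123 with the block). Its values ran from -1.08 to -0.15 over the alternatives. The other netrin receptors, Neo1 (222 CPM in Trim28 KO and 172 CPM in WT on average, 0.37 ± 0.21) and Dcc (40 counts in all, 1.01 ± 0.58), were not called.

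**Figure D4:**
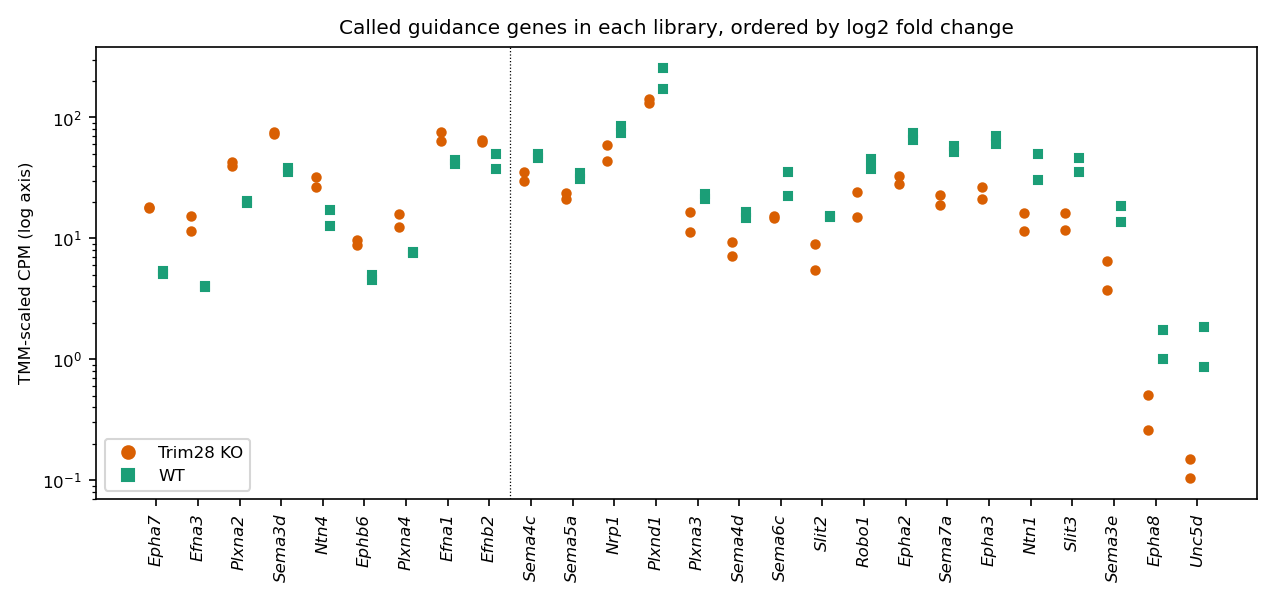
TMM-scaled CPM in each library (y axis, log scale) of the 26 called guidance genes, ordered by fitted log2 fold change from Epha7 to Unc5d, which had 5 counts in all in Trim28 KO, with a dotted line between rises and falls. Circles are Trim28 KO and squares WT libraries, and the genotypes do not overlap for any of the 26, which were plotted for their call (58.0% of all genes tested do not overlap).

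Among 58 other genes of these pathways, 57 were tested, 3 rose and 8 fell, which is 19.3%, close to the 17.4% of all genes. Of the 3 actin-severing Mical oxidases, which act below plexins, Mical1 rose, Mical2 fell and Mical3 was not called (-0.19 ± 0.19). Mical1 had 89.0 and 79.2 CPM in Trim28 KO libraries, against 32.3 and 33.3 CPM in WT libraries (1.36 ± 0.19, adjusted p = 1.40e-05 by edgeR), and Mical2 had 2.99 and 5.37 CPM in Trim28 KO, against 11.7 and 10.8 CPM in WT (-1.43 ± 0.27, adjusted p = 0.000542). Srgap1, a GTPase-activating protein that binds Robo1, had 5.87 and 9.79 CPM in Trim28 KO, against 18.8 and 21.1 CPM in WT (-1.35 ± 0.23, adjusted p = 0.000269). These 3 calls held under every alternative. Falls were also called for Draxin, a DCC ligand (-2.14 ± 0.52), the receptor kinases Mst1r (-1.41 ± 0.36) and Met (-1.13 ± 0.32), Flrt2, a ligand of Unc5 receptors (-0.83 ± 0.23), and Vav2, an exchange factor below Eph receptors (-0.70 ± 0.21). Rises were called for Cd72, a Sema4d receptor of immune cells (1.88 ± 0.43), and Rgma, a neogenin ligand (0.74 ± 0.21). Each of these 7 lost its call without Trim28 KO 1 (adjusted p from 0.0504 to 0.302), and Draxin, Mst1r, Met, Vav2 and Rgma also without Trim28 KO 2 (0.0637 to 0.173). Draxin and Vav2 lost it without WT 1 (0.205 and 0.235), and Mst1r, Met and Rgma without WT 2 (0.0735, 0.171 and 0.179), while DESeq2 called neither Mst1r (0.0501), Met (0.0822) nor Vav2 (0.0887). The remaining fall, in Dpysl3, lay outside the rule for naming (-0.62 ± 0.20) and was lost without Trim28 KO 1 (adjusted p = 0.378) or WT 2 (0.0814) and with library size alone (0.0525).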

How the data were processed

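RNA-seq counts of 4 libraries were analysed, 2 per genotype, grouped by their labels. The authors deposited raw counts of fragments per gene. Per the file headers, paired-end reads were summed over the exons of each gene name by featureCounts 1.6.4 with the mm10 annotation GENCODE M23. Strand, multi-mapping and overlap options were not set, so reads shared by genes went uncounted and antisense pairs cannot be told apart. The aligner is not given in the sources used here.

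Genes passing edgeR's filterByExpr (16639) were scaled by TMM and tested with its quasi-likelihood test and robust dispersions, without covariates, in edgeR 4.0.16 under R 4.3.3 (limma 3.58.1). P-values were adjusted by Benjamini-Hochberg over all tested genes. Genes were called at an adjusted p under 0.05, and "rose" and "fell" refer to calls. The standard error is the log2 fold change over the square root of F. The common biological coefficient of variation was 16.3%. The steps were tested on simulated counts. A count of 3, taken as the floor, was 0.149 to 0.161 CPM, and covers counting error only. CPM per kb used the deposited exon length. Positions were read from GENCODE M21 (GRCm38, the mm10 assembly) and promoters from RefSeq, which listed 60 of 72 genes.

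Members and lists were chosen with earlier results of these data known. The rule for naming took Trim28, every member with at least 20 counts, up to 10 called pathway genes with the smallest p-values, Dcc and Neo1. Alternatives were RLE (relative log expression) scaling, library size alone, no filter, at least 5 CPM in 2 libraries, DESeq2 1.42.0, a replicate block, and leaving out each library.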

Additional observations from a re-analysis of the deposited data

How the results depend on the processing

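Of the 26 called guidance genes, 11 kept their call in every alternative that tested them and 15 lost it in at least 1, and the direction of none of the 26 was reversed. Of the 37 uncalled genes, 10 were called in some alternative and 12 changed sign in some. Other scalings moved the median of all genes from -0.02 with TMM to -0.01 with RLE factors and 0.04 with library size alone, where 57.4% of calls were higher, against 49.6%. Counts over all genes ran from 702 to 1442 higher and from 572 to 1406 lower without 1 library, and DESeq2 called 946 lower. Guidance genes ran from 5 to 12 higher and from 8 to 21 lower without 1 library, and their median from -0.51 to -0.10. Pathway genes ran from 1 to 5 higher and from 2 to 6 lower without 1 library. With library size alone 6 were higher, with the replicate block 5 were higher, and with the stricter filter and with DESeq2 5 were lower. The cause of these differences was not tested, though leaving out a library also leaves fewer samples.

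All sign changes were among uncalled genes. Epha4 was 0.037 with library size alone, 0.015 with no filter, 0.014 in DESeq2, and from -0.52 to 0.37 without 1 library. Epha5 was -0.00010 with the replicate block, and Ephb4 0.032 with library size alone. Plxna1 was -0.028 with the stricter filter. Without 1 library, values ran from -0.63 to 0.53 for Epha5, -0.61 to 0.17 for Ephb1, -0.20 to 0.16 for Ephb4, -0.51 to 0.069 for Efna2, -0.53 to 0.41 for Sema6b, -0.52 to 0.0041 for Sema6d, -0.16 to 0.23 for Plxna1, -0.16 to 0.65 for Plxnb3, -0.035 to 0.96 for Sema3f, -0.21 to 0.014 for Sema3g, and -0.38 to 0.12 for Unc5b.

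The labels number the libraries 1 and 2 in each genotype and do not say that numbers mark a shared litter or batch. For that reason the numbers were not taken as pairs. Deviations of same-numbered libraries from their genotype means had a correlation of -0.08. With 2 libraries per genotype, this single value cannot show whether they share a litter or batch. With the replicate block, 9 guidance genes were higher and 19 lower, against 9 and 17, and over all genes 1477 were higher and 1444 lower. Counts of 9 of the 72 guidance genes were too low to test, and low expression and limited depth cannot be told apart there.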

Other observations

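Other guidance genes also lie near each other. Epha8 and Ephb2 are 0.093 Mb apart on chromosome 4, and Epha8 was called lower while Ephb2 was not called, a difference between the genes that was not tested. Robo1 and Robo2 lie 0.846 Mb apart on chromosome 16, with log2 fold changes of -1.07 ± 0.22 and -1.56 ± 0.50. Summed over members, 2 of the 12 families had more CPM in both Trim28 KO libraries than in both WT libraries (ephrin-A ligands and secreted semaphorins), 6 had less, and the EphB, ephrin-B, netrin and plexin sums overlapped. Over all genes tested, 58.0% did not overlap. The Slit ligands had 17.51 and 25.3 CPM in Trim28 KO libraries, against 61.4 and 50.6 CPM in WT libraries, and the Robo receptors 34.0 and 55.0 CPM in Trim28 KO, against 94.9 and 77.8 CPM in WT. The ephrin-A ligands summed to 120 and 106 CPM in Trim28 KO, against 76.5 and 69.4 CPM in WT, and the EphA receptors to 81.3 and 102 CPM in Trim28 KO, against 159 and 162 CPM in WT. The EphA sum includes Epha7, which rose. These sums were not tested.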
